A study of Mus musculus with 7 samples.

Results

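Transcripts for the enzymes of glycolysis and for genes that respond to low oxygen were evaluated by RNA-seq in C3H10T1/2 cells, a mouse mesenchymal line that can take osteoblastic or adipogenic fates. The genes were 43 symbols looked up by name among the 18468 rows of the deposited count table. A row was found for 42 of them, since pyruvate kinase is listed once, under its older symbol Pkm2, and not under Pkm. Of the 42, 38 passed the filter on low counts, as did 12388 genes of the whole table. All cells were grown in 10% fetal bovine serum, were within 10 passages of purchase, and were then held without serum for 12 h before and throughout the treatment. Cells of 4 libraries (purmorphamine replicates 5 to 8) were exposed for 48 h to 2 μM purmorphamine, a small-molecule agonist of Smoothened (Smo), and those of 3 libraries (DMSO replicates 2 to 4) to 0.02% DMSO as vehicle. The cells are 1 line, no low-oxygen condition is named, and the sources do not say whether the libraries came from separate cultures, so p-values measure the spread between libraries, which may be technical.

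The libraries held 14337225 to 14342154 reads on genes, as the authors had resampled the reads to an equal number. The targets of Smo signaling Gli1 and Ptch1 were raised in every purmorphamine library, Gli1 from 7 to 12 reads to 2522 to 3171 and Ptch1 from 504 to 532 reads to 10296 to 11451. All 6 markers of a mesenchymal line (Vim, Col1a1, Col1a2, Thy1, Pdgfra and Pdgfrb) were abundant in both groups, with a summed level of 13041 to 13535 CPM (reads scaled to a common library total) with DMSO and 10078 to 10708 with purmorphamine. They did not move together, since Vim and Col1a2 fell (log2 fold changes of -0.96 and -0.23), Thy1 and Pdgfra rose (0.74 and 0.76) and the other 2 were not called. Markers of other cell types, 7 of them reported here, summed to 2.85 to 4.39 CPM with DMSO and 11.1 to 12.5 with purmorphamine. Krt14 and Ptprc, of keratinocytes and leukocytes, had 0 or 1 read in each library, Epcam had no row of its own, and Pecam1, Cd68 and Adipoq had at most 19 reads. Cdh1, an epithelial cadherin, rose from 14 to 21 reads to 110 to 135, and the endothelial Cdh5 had 0 reads in each DMSO library and 21 to 26 with purmorphamine. The part of these shifts in the results for glycolytic and hypoxia-responsive genes was not tested. Fewer cells of a type and less RNA per cell cannot be told apart in such libraries.

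Glycolysis takes glucose, brought in by facilitative transporters, through phosphorylation, splitting into triose phosphates and a pay-off phase to pyruvate. Pyruvate is then either reduced to lactate and exported or oxidized in mitochondria, an entry that pyruvate dehydrogenase kinases close. Many of these genes are targets of the hypoxia-inducible factors (HIFs), transcription factors whose α subunits are hydroxylated by prolyl hydroxylases when oxygen is present and then degraded. HIFs bind a core hypoxia response element, and the Gli factors downstream of Smo bind a different element. Mesenchymal progenitors are known for a high rate of glycolysis, and the balance between glycolysis and respiration is known to shift as they differentiate.

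Because many glycolytic genes are known to share HIF elements, the promoters of the genes were examined first. RefSeq windows (GRCm38.p6) from 250 bases before to 50 bases after an annotated start were at hand for 37 of the 42 genes, 53 windows in all. They were searched on both strands for ACGTG and GCGTG, the core of the hypoxia response element, and for GACCACCCA, the consensus of the Gli factors. A CACGTG, which reads as ACGTG on both strands, was counted once. The windows below are shown because they belong to genes described in detail and hold the core in different forms. They lie at chr4:119108495-119108794 (+ strand) for Slc2a1, chr6:82774405-82774704 (- strand) for Hk2, chrX:106186850-106187149 (+ strand) for Pgk1, chr7:46845554-46845853 (+ strand) for Ldha and chr7:110627407-110627706 (+ strand) for Adm. Each is written 5′ to 3′ along its gene, with the core in capitals, as CACGT or CACGC where it lies on the opposite strand.
Slc2a1: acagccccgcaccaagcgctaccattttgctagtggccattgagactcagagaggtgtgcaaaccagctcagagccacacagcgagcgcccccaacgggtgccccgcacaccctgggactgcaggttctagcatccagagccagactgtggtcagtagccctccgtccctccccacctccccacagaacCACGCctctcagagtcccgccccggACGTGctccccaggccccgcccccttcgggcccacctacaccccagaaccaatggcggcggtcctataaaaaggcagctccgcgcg
Hk2: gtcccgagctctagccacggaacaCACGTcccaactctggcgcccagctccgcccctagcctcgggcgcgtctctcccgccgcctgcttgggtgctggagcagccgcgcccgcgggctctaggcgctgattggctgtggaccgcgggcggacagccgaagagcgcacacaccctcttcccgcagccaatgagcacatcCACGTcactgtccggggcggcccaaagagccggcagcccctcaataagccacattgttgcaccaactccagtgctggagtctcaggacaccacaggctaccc
Pgk1: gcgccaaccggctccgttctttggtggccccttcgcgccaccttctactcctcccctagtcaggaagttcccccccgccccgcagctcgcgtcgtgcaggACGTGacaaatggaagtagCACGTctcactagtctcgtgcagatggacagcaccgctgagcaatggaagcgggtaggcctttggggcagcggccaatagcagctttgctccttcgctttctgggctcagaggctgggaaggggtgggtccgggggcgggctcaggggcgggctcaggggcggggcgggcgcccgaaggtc
Ldha: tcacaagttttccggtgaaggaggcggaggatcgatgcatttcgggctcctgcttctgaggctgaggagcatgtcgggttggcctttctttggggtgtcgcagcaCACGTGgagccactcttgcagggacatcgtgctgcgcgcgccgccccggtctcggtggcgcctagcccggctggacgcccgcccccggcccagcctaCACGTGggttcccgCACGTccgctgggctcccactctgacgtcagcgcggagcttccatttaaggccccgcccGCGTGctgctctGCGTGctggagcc
Adm: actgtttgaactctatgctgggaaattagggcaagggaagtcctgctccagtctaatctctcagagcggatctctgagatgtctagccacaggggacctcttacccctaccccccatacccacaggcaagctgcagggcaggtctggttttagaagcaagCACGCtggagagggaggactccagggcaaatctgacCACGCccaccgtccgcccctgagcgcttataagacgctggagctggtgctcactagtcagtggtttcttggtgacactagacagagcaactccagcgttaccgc
Slc2a1 held 1 ACGTG and 1 GCGTG, Hk2 and Pgk1 2 ACGTG each, Ldha 3 ACGTG and 2 GCGTG, and Adm 2 GCGTG. All 5 genes fell with purmorphamine, as given below.

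The window of Eno2 (chr6:124769624-124769923, - strand) is shown as a contrast, since Eno2 rose and its window held neither core.
Eno2: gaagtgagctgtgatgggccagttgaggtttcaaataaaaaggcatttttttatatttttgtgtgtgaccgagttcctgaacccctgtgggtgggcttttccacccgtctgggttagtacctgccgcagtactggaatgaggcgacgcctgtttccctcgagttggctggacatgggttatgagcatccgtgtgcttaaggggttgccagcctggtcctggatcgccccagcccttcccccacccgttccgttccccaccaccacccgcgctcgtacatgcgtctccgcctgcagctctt
An absent match says only that these letters are not in this window. Either core was present in 83.0% of the windows of these genes, 61.9% of the 12308 windows of all genes tested and 43.8% of all 32851 RefSeq windows. ACGTG alone was present in 54.7%, 25.3% and 19.6%, respectively, and GCGTG in 58.5%, 50.7% and 32.4%. Windows with a core belonged to genes of either direction. The window of Tpi1, which was called lower, held neither core, and that of Pfkp, which was called higher, held 4 GCGTG. Either core was found in 30 of the 36 windows of genes that fell, in 8 of the 11 windows of genes that rose and in 4 of the 4 windows of genes with no call. All 15 windows of the 11 genes that fell by at least 1.5-fold held one. The ACGTG form was found in 53.3% of these 15, beside 54.7% of all 53 windows. The GCGTG form was found in 73.3% of these 15, beside 58.5% of all 53. For the 4 windows of genes with no call the shares were 75.0% and 100%, respectively. Whether either core goes with the size of a fall was not tested. Windows are not independent, since a gene can have several and these can overlap, as some of Eno1 do. The Gli consensus was found in 0 of the 53 windows, beside 0.211% of windows of all genes tested and 0.253% of all RefSeq windows.

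Purmorphamine was attended by lower transcripts for most of these genes. At an adjusted p under 0.2, the study's false discovery rate, 25 of the 38 genes tested were lower and 8 higher, and 5 were not called (edgeR's quasi-likelihood test, Benjamini-Hochberg adjustment over all genes tested). Of all 12388 genes tested, 31.1% were called lower and 31.4% higher. A fall of at least 1.5-fold was found for 11 genes (7.56% of all genes tested) and a rise of that size for 1 (7.89%). In unscaled reads, every purmorphamine library lay below every DMSO library for 23 genes (20.4% of all genes tested), and above for 6 (29.1%). Overlap of single genes, here and below, was judged on unscaled reads. Scaling lowers purmorphamine reads slightly against DMSO, with factors of 0.978 to 0.986 for DMSO and 1.006 to 1.019 for purmorphamine. Groups that lie just apart in unscaled reads can therefore overlap after it. At an adjusted p under 0.05 the counts were 23 lower and 1 higher. Without DMSO replicate 3, and likewise without DMSO replicate 4, 5 genes were called higher, and 3 of the 8 (Eno2, Pdk2 and Slc16a1) kept their call at the threshold of 0.2 under every other scaling, tool, filter and left-out library. The median log2 fold change (log2 change, purmorphamine over DMSO) was -0.31 over the 38 genes and 0.0038 over all genes tested.

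**Figure D1:**
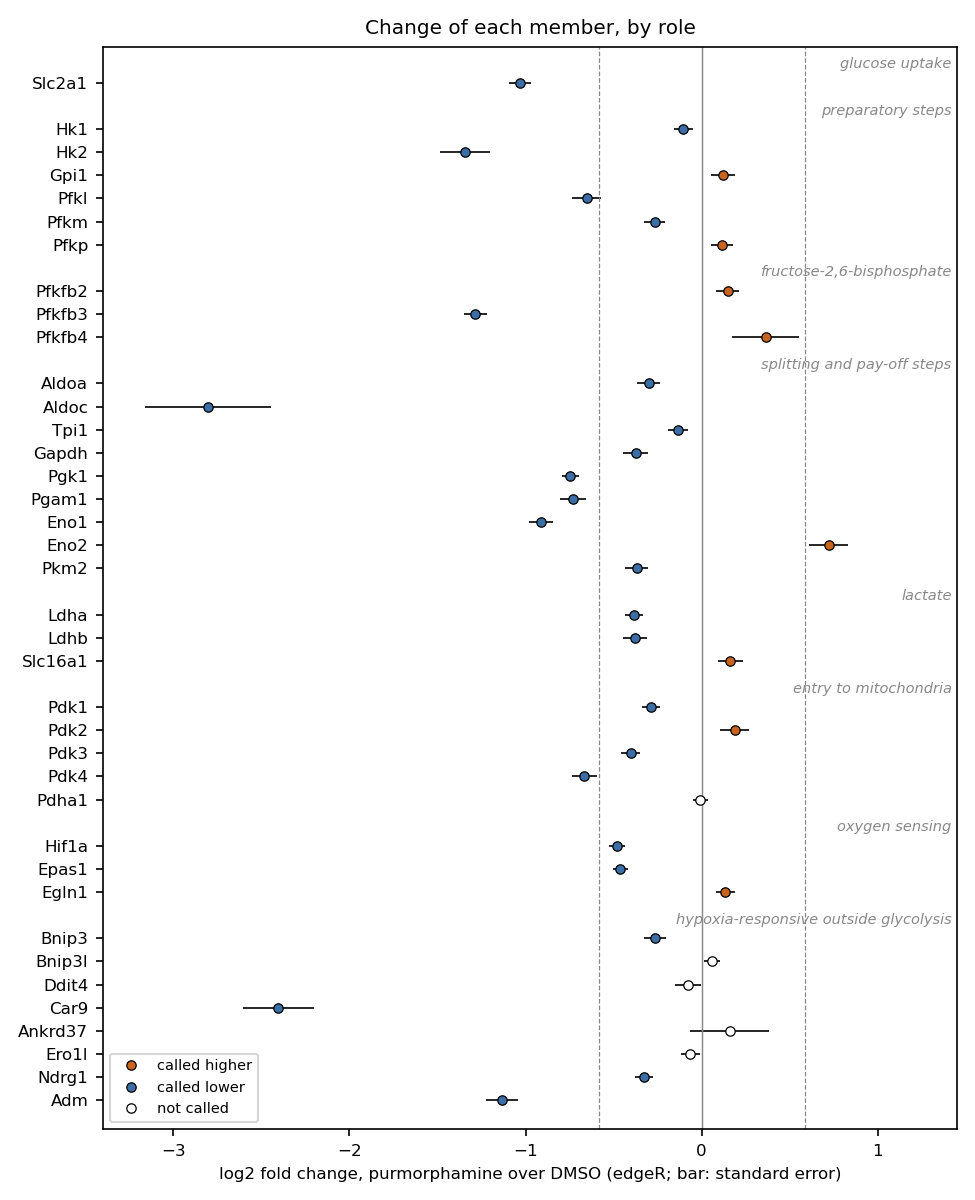
Log2 fold change (x axis, purmorphamine over DMSO) of the 38 genes tested, by role (y axis). Points are estimates from edgeR over 3 DMSO and 4 purmorphamine libraries, bars are standard errors (SE), filled points were called, and dashed lines mark a 1.5-fold change. Most points lie left of 0, with Aldoc (-2.80) and Car9 (-2.41) farthest to the left and Eno2 (0.72) farthest to the right.

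The glycolytic enzymes alone, from hexokinase to lactate dehydrogenase, were 17 tested genes. Of these 14 were lower and 3 (Gpi1, Pfkp and Eno2) higher, with a median log2 change of -0.38. Together they took 0.213, 0.214 and 0.227% of reads in the DMSO libraries and 0.184, 0.191, 0.157 and 0.176% in purmorphamine replicates 5 to 8. The groups did not overlap. Purmorphamine replicate 7 was the lowest. After scaling it was the lowest of the 4 purmorphamine libraries for 14 of the 17 enzymes, against 29.6% of all genes tested. Without this library 13 enzymes were lower and 3 higher, with a median log2 change of -0.30, and Hk1 was the one no longer called.

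**Figure D2:**
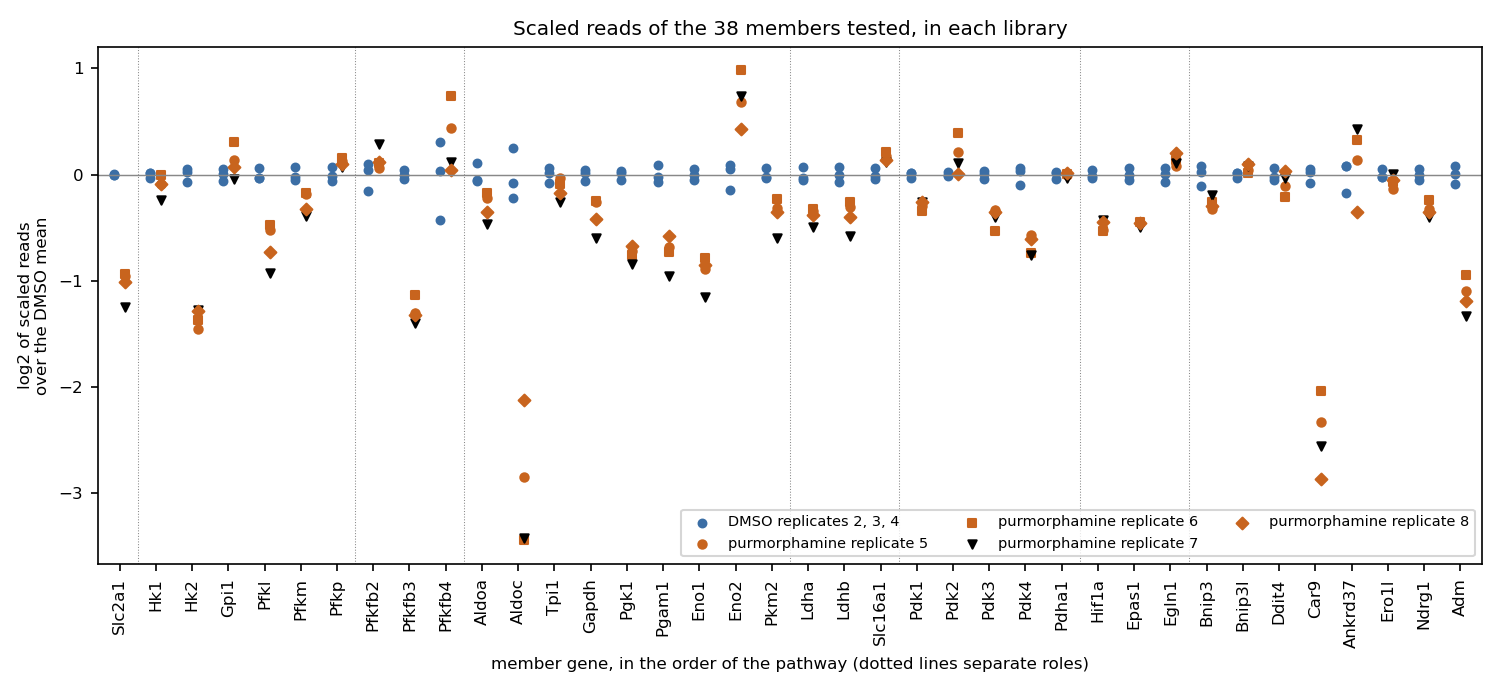
Scaled reads in each library as the log2 of their ratio to the DMSO mean (y axis), for the 38 genes tested in the order of the pathway (x axis). Each point is 1 library, and purmorphamine replicate 7 is the black triangle, the lowest purmorphamine point for 14 of the 17 glycolytic enzymes.

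Glucose uptake was represented by 1 transporter. Slc2a1 (ENSMUSG00000028645, chromosome 4, 119108711 to 119137983 in GRCm38), which encodes the widely expressed transporter GLUT1, had 1252, 1268 and 1246 reads with DMSO and 670, 682, 541 and 646 with purmorphamine. The DMSO libraries were close to one another and all purmorphamine libraries lay well below them. Its log2 change was -1.03 (standard error, SE, 0.065, edgeR adjusted p = 8.02e-10), or 2.04-fold lower by the ratio of scaled means. The transporters Slc2a3 (GLUT3) and Slc2a4 (the insulin-responsive GLUT4) had at most 3 reads in any library, a level of about 0.209 CPM or less, and were not tested.

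Among the preparatory steps, hexokinase traps glucose in the cell by phosphorylation. Hk2 (ENSMUSG00000000628, chromosome 6, 82725025 to 82774454), the inducible hexokinase, had 83, 89 and 90 reads with DMSO and 33, 35, 37 and 37 with purmorphamine. It fell by 1.34 on the log2 scale (SE 0.141, edgeR adjusted p = 5.67e-07), with no overlap of the groups. Hk1, the housekeeping hexokinase, was the more abundant form, at 20.3 ± 0.393 CPM per kilobase of exon with DMSO (SD, n = 3) against 1.04 ± 0.045 for Hk2. Its groups overlapped, with 2441 ± 49.8 reads (SD, n = 3) with DMSO and 2348 ± 164 (SD, n = 4) with purmorphamine, and its log2 change of -0.10 (SE 0.052, edgeR adjusted p = 0.116) was not called with library totals in place of scaling factors (adjusted p = 0.415). Gpi1, which interconverts glucose and fructose phosphates, had a log2 change of 0.12 (edgeR adjusted p = 0.147), again with overlapping groups. The call for Hk1 was also lost without DMSO replicate 3 (adjusted p = 0.241), DMSO replicate 4 (0.267) or purmorphamine replicate 7 (0.35), and that for Gpi1 without DMSO replicate 2 (0.356), DMSO replicate 3 (0.244) or purmorphamine replicate 6 (0.343).

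Phosphofructokinase commits sugar to glycolysis, and its 3 subunit genes differed in direction. Pfkl (ENSMUSG00000020277, chromosome 10, 77986947 to 78010083), the liver-type subunit, had 817, 825 and 873 reads with DMSO and 602, 628, 452 and 522 with purmorphamine, and fell by 0.65 on the log2 scale (SE 0.084, edgeR adjusted p = 6.55e-06). The groups did not overlap, and purmorphamine replicate 7 was lowest. Pfkm, the muscle-type subunit and the highest of the 3 per length, fell by 0.27 on the log2 scale (edgeR adjusted p = 0.0013). Pfkp, the platelet-type subunit, went from 438 ± 22.5 to 491 ± 14.6 reads, a log2 change of 0.12 (edgeR adjusted p = 0.15). It was not called by DESeq2 (adjusted p = 0.264), without a filter (0.201) or without DMSO replicate 2 (0.279) or 4 (0.367).

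The bifunctional PFKFB enzymes make and remove fructose-2,6-bisphosphate, which activates phosphofructokinase. Pfkfb3 (ENSMUSG00000026773, chromosome 2, 11471433 to 11554077), the isozyme with the highest ratio of kinase to phosphatase activity, had 897, 953 and 917 reads with DMSO and 387, 436, 359 and 381 with purmorphamine. All 4 purmorphamine libraries lay far below the DMSO libraries. Its log2 change of -1.29 (SE 0.064, edgeR adjusted p = 4.51e-11) had the smallest adjusted p of the 38 genes. Pfkfb2 and Pfkfb4, the heart- and testis-type isozymes, had log2 changes of 0.15 (edgeR adjusted p = 0.0855) and 0.36 (adjusted p = 0.127), both with overlapping groups. Without DMSO replicate 4 neither was called (adjusted p = 0.394 and 0.463), and Pfkfb4 was also not called without DMSO replicate 3 (0.202) or purmorphamine replicate 6 (0.323). Pfkfb4 was low, with 67.3 ± 16.6 reads with DMSO and 89.5 ± 20.8 with purmorphamine. Per kilobase of exon, Pfkfb2 and Pfkfb3 had similar levels with DMSO (8.81 ± 0.80 and 8.67 ± 0.238 CPM per kilobase, SD, n = 3), whereas with purmorphamine the levels were 9.76 ± 0.694 and 3.56 ± 0.28 (SD, n = 4).

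Aldolase splits the 6-carbon sugar, and triose phosphate isomerase interconverts the products. Aldoc (ENSMUSG00000017390, chromosome 11, 78322968 to 78327781), the brain-type aldolase, had 25, 20 and 18 reads with DMSO and 3, 2, 2 and 5 with purmorphamine. It was the lowest of the 17 enzymes per length, and its log2 change of -2.80 (SE 0.36, edgeR adjusted p = 6.29e-06) rests on few reads. Aldoa, the common form, fell by 0.30 on the log2 scale (edgeR adjusted p = 0.00104). It had 95.1 ± 6.44 CPM per kilobase with DMSO and 77.2 ± 6.98 with purmorphamine, so that nearly all reads of the pair were those of Aldoa in both groups. Tpi1, the isomerase, had a log2 change of -0.14 (edgeR adjusted p = 0.0577) with overlapping groups, which was not called with library totals in place of scaling factors (adjusted p = 0.217) or without DMSO replicate 4 (0.247).

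The pay-off steps that follow were also lower, apart from Eno2. Gapdh (ENSMUSG00000057666, chromosome 6, 125161715 to 125166467), which oxidizes the triose phosphate and is in wide use as a reference gene, had 1815, 1924 and 1946 reads with DMSO and 1635, 1657, 1280 and 1468 with purmorphamine. The groups did not overlap, and the log2 change was -0.38 (SE 0.069, edgeR adjusted p = 0.000272). Reads of Gapdh are uncertain, because GENCODE M21 holds 80 near-identical copies of it, most of them processed pseudogenes, and those in the table took 358 reads in a mean library, or 21.4% of the mean for Gapdh. With the reads of these copies added, its log2 change was -0.34. Pgk1 (ENSMUSG00000062070, chromosome X, 106187100 to 106203699), the first kinase to return ATP, had 2112, 2036 and 2138 reads with DMSO and 1317, 1283, 1199 and 1365 with purmorphamine (log2 change -0.75, SE 0.05, edgeR adjusted p = 1.78e-09). Its purmorphamine libraries were close to one another and all below DMSO.

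Pgam1 (ENSMUSG00000011752, chromosome 19, 41911923 to 41918660), the mutase, had 839, 872 and 933 reads with DMSO and 566, 550, 467 and 610 with purmorphamine, and fell by 0.73 on the log2 scale (SE 0.074, edgeR adjusted p = 3.38e-07). Eno1 (ENSMUSG00000063524, chromosome 4, 150236721 to 150248879), the ubiquitous enolase, had 2200, 2132 and 2283 reads with DMSO and 1233, 1331, 1018 and 1267 with purmorphamine. Its log2 change was -0.91 (SE 0.067, edgeR adjusted p = 6.54e-09), and -0.90 with the reads of 2 near-identical copies, Eno1b and Gm4735, added. In all, 11 of the 42 genes have an annotated near-identical copy, and apart from Gapdh and Eno1 the copies in the table took at most 0.243% of the reads of the gene. Only 22 of the 80 copies of Gapdh, and no copy of Pgk1, Pkm2 or Tpi1, had a row in the table. The effect of copies without a row could not be measured, and a low share does not exclude it. For Pgam1 and Eno1 the groups did not overlap and purmorphamine replicate 7 was lowest. Pkm2, whose row covers both muscle-type pyruvate kinase isoforms without telling them apart, fell by 0.37 on the log2 scale (edgeR adjusted p = 0.000206), from 5479 ± 181 to 4383 ± 482 reads.

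Eno2 (ENSMUSG00000004267, chromosome 6, 124760053 to 124769673), the neuron-type enolase, went the other way and was the only one of the 38 genes to rise by at least 1.5-fold. It had 215, 222 and 187 reads with DMSO and 345, 426, 356 and 290 with purmorphamine. All purmorphamine libraries were higher, and the log2 change was 0.72 (SE 0.113, edgeR adjusted p = 5.19e-05). Eno2 was still lower than Eno1 per length, at 5.18 ± 0.81 CPM per kilobase with purmorphamine against 15.5 ± 1.66 for Eno1 (SD, n = 4).

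Lactate dehydrogenase reduces pyruvate to lactate. Ldha (ENSMUSG00000063229, chromosome 7, 46841475 to 46855627), the muscle-type subunit, had 4839, 4798 and 5182 reads with DMSO and 4012, 4087, 3606 and 3937 with purmorphamine, with a log2 change of -0.38 (SE 0.05, edgeR adjusted p = 7.77e-06). Per length it was the highest of the 38 genes with DMSO, at 106 ± 4.9 CPM per kilobase, which did not differ beyond the spread from the 105 ± 2.93 of Pdha1 (SD, n = 3). Lengths here count every annotated exon base of a gene, such as 3310 for Ldha and 4133 for Gapdh. Rankings between genes therefore depend in part on the annotation. Ldhb, the heart-type subunit, fell by the same 0.38 on the log2 scale (edgeR adjusted p = 0.000197). Slc16a1, which encodes the monocarboxylate transporter MCT1, rose slightly, from 278 ± 10.1 to 322 ± 10.8 reads, a log2 change of 0.16 (edgeR adjusted p = 0.0772). Slc16a3, which encodes the lactate exporter MCT4 of glycolytic cells, had at most 1 read in any library and was not tested.

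At the entry to mitochondria, 3 of the 4 pyruvate dehydrogenase kinases fell and 1 rose. Pdk4 (ENSMUSG00000019577, chromosome 6, 5483351 to 5496309), known to be induced by fasting, had 642, 589 and 653 reads with DMSO and 438, 390, 381 and 427 with purmorphamine, and fell by 0.67 on the log2 scale (SE 0.069, edgeR adjusted p = 4.7e-07). Pdk1 (ENSMUSG00000006494, chromosome 2, 71873224 to 71903858), a known HIF target, had 921, 899 and 919 reads with DMSO and 770, 748, 782 and 792 with purmorphamine (log2 change -0.29, SE 0.051, edgeR adjusted p = 0.000181). The groups of both genes were tight and did not overlap. Pdk3, the highest of the kinases per length, fell by 0.40 on the log2 scale (edgeR adjusted p = 1.07e-05). Pdk2 had a log2 change of 0.19 (edgeR adjusted p = 0.0703), and of 0.12 without purmorphamine replicate 6, its highest library. Pdha1, the catalytic subunit on which the kinases act, had 5540 ± 131 reads with DMSO and 5694 ± 108 with purmorphamine. Its log2 change was -0.01 (SE 0.043, edgeR adjusted p = 0.904), a difference within the spread between libraries.

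Of the 4 oxygen-sensing genes, 3 were tested. Hif1a (ENSMUSG00000021109, chromosome 12, 73901375 to 73947530), which encodes HIF1α, had 4151, 3973 and 3995 reads with DMSO and 2910, 2892, 3084 and 3063 with purmorphamine. The log2 change was -0.48 (SE 0.046, edgeR adjusted p = 1.55e-07). Epas1, which encodes HIF2α, fell alongside by 0.46 on the log2 scale (SE 0.045, edgeR adjusted p = 2.03e-07), from 3580 ± 142 to 2686 ± 52.1 reads. For both genes every purmorphamine library lay below the lowest DMSO library. Egln1, the main prolyl hydroxylase of HIF-α and itself a HIF target, had a log2 change of 0.13 (edgeR adjusted p = 0.0516), and was not called without DMSO replicate 3 (adjusted p = 0.227). Egln3, a strongly hypoxia-induced hydroxylase, had at most 3 reads in any library and was not tested. Protein, on which HIF-α is mainly controlled, was not measured in these libraries.

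The hypoxia-responsive genes outside glycolysis divided into a few large falls and several small or uncalled differences. Car9 (ENSMUSG00000028463, chromosome 4, 43506966 to 43513729), a cell-surface carbonic anhydrase in use as a marker of hypoxia, had 60, 66 and 64 reads with DMSO and 13, 16, 11 and 9 with purmorphamine. It fell by 2.41 on the log2 scale (SE 0.202, edgeR adjusted p = 3.41e-08), or 5.34-fold by the ratio of scaled means. Adm (ENSMUSG00000030790, chromosome 7, 110627661 to 110629820), which encodes the vasodilator peptide adrenomedullin, had 323, 364 and 344 reads with DMSO and 166, 185, 140 and 156 with purmorphamine (log2 change -1.13, SE 0.093, edgeR adjusted p = 2.45e-08). In both genes the groups lay far apart.

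Bnip3 (ENSMUSG00000078566, chromosome 7, 138890836 to 138909519), a mitophagy receptor, had 644, 570 and 620 reads with DMSO and 506, 532, 547 and 517 with purmorphamine, and fell by 0.27 on the log2 scale (SE 0.063, edgeR adjusted p = 0.00243). Ndrg1, a stress-responsive gene, fell by 0.33 on the log2 scale (edgeR adjusted p = 3.15e-05). The remaining 4 were not called. Their log2 changes were 0.06 for Bnip3l, the paralog of Bnip3 (edgeR adjusted p = 0.284, but 0.0484 with library totals in place of scaling factors and 0.13 without purmorphamine replicate 6), -0.08 for Ddit4, an inhibitor of mTORC1 (adjusted p = 0.413), 0.16 for Ankrd37 (adjusted p = 0.59), and -0.07 for Ero1l, an oxidase of protein disulfides (adjusted p = 0.335). Among these 4, every purmorphamine library of Bnip3l lay above every DMSO library in unscaled reads, whereas the groups of the other 3 overlapped.

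Levels per length placed these changes in context. Aldoc and Hk2 were the minor forms of their enzymes, whereas Pfkfb3, which fell by nearly as much as Hk2 on the log2 scale, was level with Pfkfb2 with DMSO. Slc2a1 and Eno1, at 25.5 ± 0.122 and 29.1 ± 1.12 CPM per kilobase with DMSO (SD, n = 3), were the higher of the transporters and enolases among the 42 genes.

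**Figure D3:**
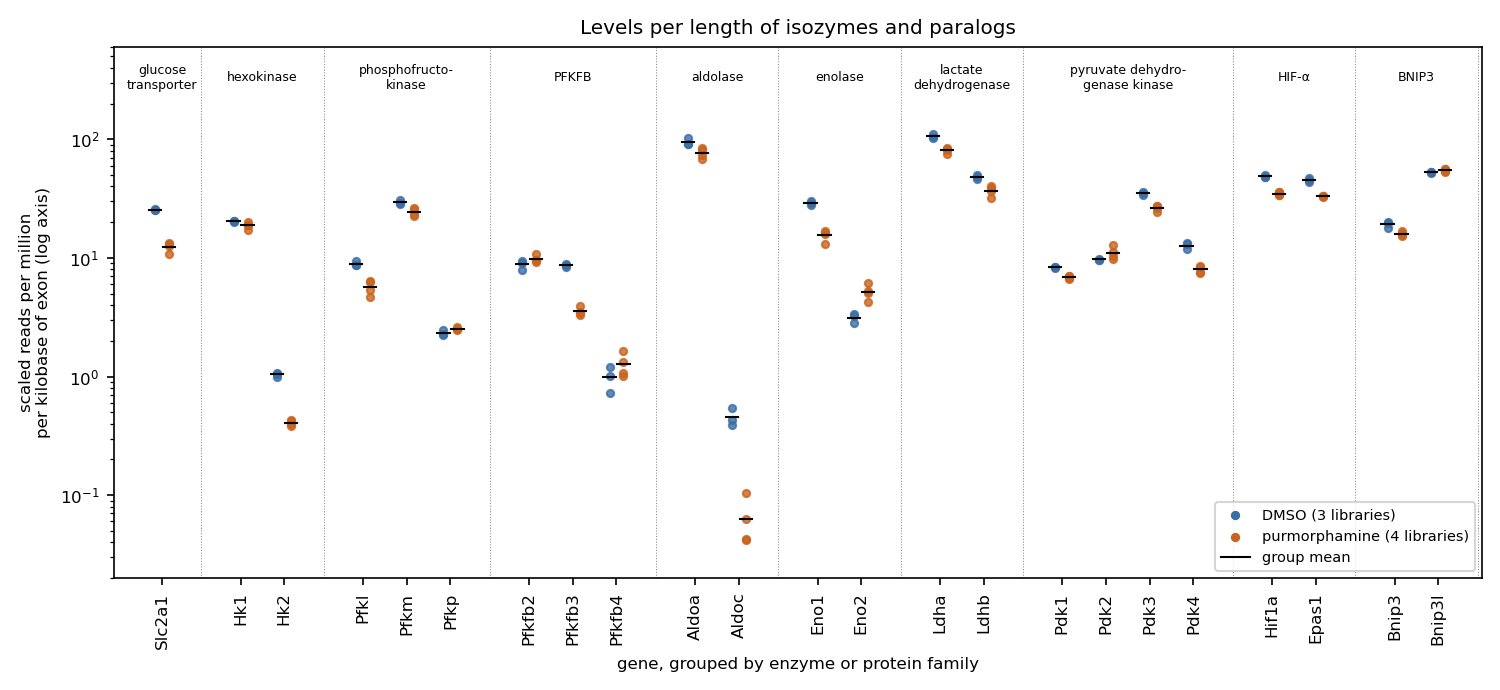
CPM per kilobase of exon (y axis, log scale) for isozymes and paralogs, grouped by family (x axis). Points are libraries and bars group means. The DMSO mean of Hk2 is 1.04 beside 20.3 for Hk1, and that of Aldoc is 0.458 beside 95.1 for Aldoa.

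The balance between isozymes was then evaluated as the ratio of their reads within a library, which does not depend on scaling between libraries. Of 10 pairs compared, 8 did not overlap between the groups. How often pairs of other genes separate the groups was not tested. Of all single genes tested, 20.4% lay wholly below DMSO and 29.1% wholly above it in unscaled reads. For a single pair the smallest p that exact permutation can give, with 35 ways to assign the libraries, is 0.0286, and these p-values are two-sided and not adjusted over the pairs. The reads of Eno2 were 0.0977, 0.104 and 0.0819 of those of Eno1 with DMSO and 0.28, 0.32, 0.35 and 0.229 with purmorphamine. The log2 ratio was higher by 1.63 (exact permutation test, p = 0.0286). The reads of Hk2 were 0.0348, 0.0359 and 0.0365 of those of Hk1 with DMSO and 0.0139, 0.0139, 0.0174 and 0.0156 with purmorphamine, a change in the log2 ratio of -1.22 (exact permutation test, p = 0.0286). Both ratios lay wholly apart between the groups, in opposite directions.

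Within phosphofructokinase, the log2 ratio of Pfkp to Pfkl was higher by 0.78 and that of Pfkm to Pfkl by 0.39, and that of Bnip3l to Bnip3 by 0.32 (exact permutation test, p = 0.0286 for each). The log2 ratio of Aldoc to Aldoa changed by -2.25 and that of Pdk4 to Pdk1 by -0.38 (exact permutation test, p = 0.0286 for each). Pdk2 gained on Pdk1 by 0.47, with no overlap but a wide spread among purmorphamine libraries (SD of 0.203, exact permutation test, p = 0.0571). The other 2 ratios did not separate the groups. Ldhb against Ldha went from a log2 ratio of -2.22 ± 0.021 to -2.22 ± 0.07 (exact permutation test, p = 0.971), and Epas1 against Hif1a from -0.17 ± 0.087 to -0.15 ± 0.071 (exact permutation test, p = 0.714). The pairs Slc2a3 with Slc2a1 and Slc16a3 with Slc16a1 were not computed, for too few reads.

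**Figure D4:**
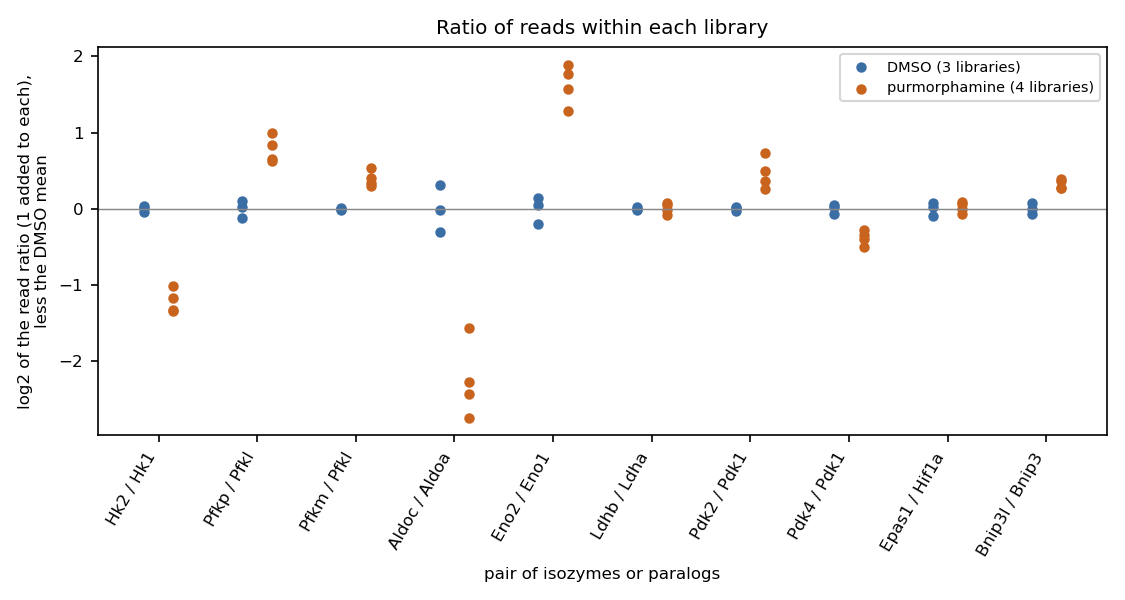
Log2 ratio of reads within each library, with 1 read added to each gene, less its mean over the DMSO libraries (y axis), for 10 pairs (x axis). Each point is 1 library, and 8 pairs do not overlap, 5 with a higher and 3 with a lower ratio after purmorphamine. The share among pairs of other genes was not tested.

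Genes around glycolysis were compared by list, as counts beside the background above. A further list held enzymes, transporters and regulators linked to glycolysis, not all of them members of the pathway itself. Of its 9 genes tested, 4 fell (Eno3, Slc2a10, Bsg and G6pc3) and 0 rose, with a median log2 change of -0.08. The transporter genes Slc2a8 and Slc2a9 were among those not called, with log2 changes of 0.10 and 0.40. Bsg, the chaperone of monocarboxylate transporters, fell by 0.38 on the log2 scale (edgeR adjusted p = 9.48e-06). Of 7 genes of the pentose phosphate pathway, 3 fell and 1 rose (Rpia, an isomerase of ribose phosphate, with a log2 change of 0.57 and an edgeR adjusted p of 1.54e-05). Of 2 tested genes of gluconeogenesis, Pcx rose and Pck2 was not called. Among the 9 genes for the mitochondrial pyruvate carrier and the pyruvate dehydrogenase complex other than Pdha1, 7 fell, including both carrier subunits, Mpc1 and Mpc2 (log2 changes of -0.42 and -0.21). The 2 that rose were Pdp1 (0.56) and Pdpr (0.12), a catalytic and a regulatory subunit of the phosphatase that opposes the kinases, whereas Pdp2, its other catalytic subunit, fell (-0.48). Of 16 genes of the tricarboxylic acid cycle, 11 fell and 0 rose, but with a median of -0.14, and 1 fell by at least 1.5-fold (Suclg2, a subunit of succinyl-CoA ligase, at -0.61).

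The regulators of HIF were mixed. Of 12 tested, 5 fell and 2 rose, with a median log2 change of -0.06. Arnt, the partner of HIF-α, had a log2 change of 0.17 (edgeR adjusted p = 0.00503), whereas its paralog Arnt2 fell from 64.7 to 27.3 reads on average, a log2 change of -1.29 (edgeR adjusted p = 0.000143). The other gene that rose was Egln2, with a log2 change of 0.26 (edgeR adjusted p = 0.0217). The other 4 that fell, by 0.15 to 0.33 on the log2 scale, were Tceb1, Tceb2, Cul2 and Rbx1, subunits of the ubiquitin ligase that takes hydroxylated HIF-α. Vhl, its receptor for HIF-α, was not called, with a log2 change of -0.04.

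Other hypoxia-responsive genes moved in both directions. Of 29 tested and reported here, 19 fell and 7 rose, with a median log2 change of -0.29, and 6 fell and 3 rose by at least 1.5-fold. The largest falls among these were those of Plod2, a lysyl hydroxylase of collagen, from 10446 ± 96.1 to 3891 ± 283 reads (log2 change -1.47, edgeR adjusted p = 9.42e-13), Angptl4, an inhibitor of lipoprotein lipase, at -1.31, and Mif, a cytokine, at -1.14. The 3 largest rises were those of Vegfa, the angiogenic growth factor and a widely used HIF target, from 588 ± 59 to 1184 ± 104 reads (log2 change 0.96, edgeR adjusted p = 1.35e-08), Vldlr, a lipoprotein receptor, at 0.83, and Wsb1, an adaptor of a ubiquitin ligase, at 0.60. Thus Vegfa and Slc2a1, both known HIF targets, differed in direction in these libraries. Of 9 reference genes in common use for PCR besides Gapdh, 5 fell, 2 rose (B2m and Hprt) and 2 (Tbp and Rpl13a, with log2 changes of 0.01 and -0.03) were not called. Apart from Suclg2 and the 6 hypoxia-responsive genes, the genes named from these lists were chosen after their values were seen.

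**Figure D5:**
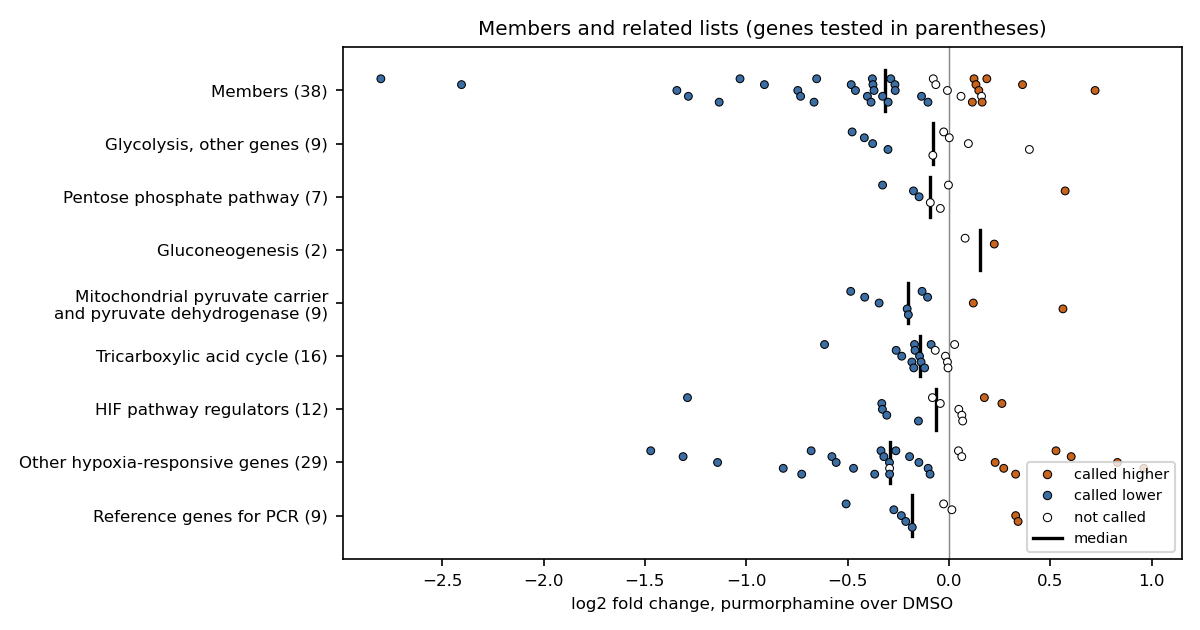
Log2 fold change (x axis, purmorphamine over DMSO) of each gene tested, by list (y axis, number tested in parentheses). Filled points were called and black bars are medians, which run from -0.31 for the members and -0.29 for other hypoxia-responsive genes to 0.15 for gluconeogenesis, a list with 2 genes tested.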

How the data were processed

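RNA from C3H10T1/2 cells was sequenced with a stranded total RNA kit after removal of ribosomal RNA, as single reads. The authors resampled the reads to equal depth and deposited whole-number counts of sense-strand reads per gene. The submitters' processing notes name STAR 2.5.3a and mm9, and the annotation release is not given in the sources used here. All 7 libraries were used and 0 per-sample columns were left out.

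The counts were fitted over the whole table in edgeR 4.0.16 (limma 3.58.1, R 4.3.3) with its filter on low counts (minimum 10, total 15), TMM factors and no covariate. The standard error was the log2 change divided by the root of F. Single ratios used 1 added to each count. Values per kilobase used exon lengths in GENCODE M21 (GRCm38), matched by identifier for 42 of the 42 genes. The length of a gene was that of all its annotated exons merged over transcripts, whichever of these the cells use. Near-identical copies shared at least 150 bases at 98% identity or more (BLAST+ 2.17.0). The calculations were tested on simulated counts.

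Members and lists were chosen with earlier results of these data known. Every member is reported. Read counts in every library are given for members called with a change of at least 1.5-fold and for Slc2a1, Hk2, Gapdh, Ldha, Pdk1, Hif1a and Bnip3. From other lists, the rule named at most 3 rises and 3 falls of at least 1.5-fold with a mean of at least 50 reads, and other genes of these lists were named after their values were seen. Some genes of these lists are not reported here. The fit was repeated with other scaling, filters and thresholds, with DESeq2 1.42.0 and limma-voom, without each library, and for ratios with a pseudocount of 0.5. Adding the reads of near-identical copies was chosen after seeing the data.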

Additional observations from a re-analysis of the deposited data

How the results depend on the processing

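Of the 33 genes called, 26 kept their direction and call under every other scaling, tool, filter and left-out library in which they were tested. These were 23 of the 25 lower (all but Hk1 and Tpi1) and 3 of the 8 higher. Aldoc and Car9 had too few reads for the filter of at least 10 reads in every library, and were not tested under it. Of 530 log2 fold changes computed under these alternatives, 505 kept their direction and side of the threshold, 18 lost the call, 2 gained it and 5 reversed, all 5 of Pdha1, which was not called. With library totals alone Pdha1 was at 0.0398, and with each library left out it ran from -0.031 to 0.0102. The count of higher genes ran from 5 to 8 with each library left out. It was 1 at an adjusted p under 0.05 and 1 with a change of at least 1.5-fold, where the count of lower genes was 11, fewer by the construction of a stricter threshold. Of 80 ratios recomputed, 5 reversed, all of pairs whose groups overlapped: with each library left out the difference in log2 ratio ran from -0.0200 to 0.0319 for Ldhb to Ldha and from -0.026 to 0.059 for Epas1 to Hif1a. Adding the reads of near-identical copies changed neither count, but this covers only copies with a row in the table. No library of the 38 genes stood apart in the group of 4 by Dixon's test, where chance would give about 1.9. No paired analysis was possible because DMSO libraries are numbered 2 to 4 and purmorphamine libraries 5 to 8. Few reads limit what can be said of Aldoc and Ankrd37, and of the 4 genes with at most 3 reads in any library.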
